A study of Rattus norvegicus with 20 samples.

Results

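A set of 35 genes of autophagy and the lysosome was followed in the gastrocnemius muscle of tumour-bearing female Fischer 344 rats. The members were chosen by gene symbol from the table of counts, which holds 32495 named gene rows, and all 35 had a row. All 35 passed the filter on low counts, as did 11716 genes in all, so none was lost. Every rat carried a transplanted Ward colorectal carcinoma that had grown for 2 weeks by the first day of chemotherapy. TUMOUR STD rats (5 libraries) ate the standard diet and received no chemotherapy. CHEMO STD rats (7 libraries) ate the standard diet and received 2 cycles of CPT-11 (irinotecan) followed by 5-FU (5-fluorouracil). CHEMO FO rats (8 libraries) received the same cycles and were switched from the standard diet to one with fish oil, which supplies EPA and DHA, on the day chemotherapy began. None of the 3 conditions was free of tumour, and no rat ate fish oil without chemotherapy, so the tumour is shared by every comparison and the diet was compared under chemotherapy alone. CHEMO STD versus TUMOUR STD addressed the effect of chemotherapy and CHEMO FO versus CHEMO STD that of the diet, whereas CHEMO FO versus TUMOUR STD combined both.

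Autophagy delivers parts of the cytoplasm to the lysosome for breakdown. The ULK1 kinase complex starts the process, a lipid kinase complex built on Becn1 and Pik3c3 marks the membrane with PI3P, and conjugation enzymes attach ATG8 proteins (the LC3 and GABARAP families) to the growing membrane. Cargo receptors link ubiquitin-tagged cargo or mitochondria to these ATG8 proteins, and cathepsins digest the cargo after fusion with the lysosome. In skeletal muscle this pathway removes damaged mitochondria and protein, and it is known for being induced, together with the ubiquitin ligases Fbxo32 (atrogin-1) and Trim63 (MuRF1), when muscle wastes. Transcript levels do not measure the flow of material through the pathway.

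The libraries were rRNA-depleted, stranded total RNA, and held 3020821 to 10857477 counts on named genes. Levels are given as CPM (the count of a gene divided by the scaled library size). The scaling was by TMM, a method that lines up the bulk of the genes between samples. CHEMO STD replicates 1 and 2 differed far less than any other pair of libraries within a condition (a chi-square per gene of 2.23, against 13.7 to 254.5 in the 58 other pairs) and were summed to 1 sample, which left 5, 6 and 8 samples. The labels number the libraries without stating that each came from its own rat, so p-values measure the spread between these samples, part of which may be technical. The tissue label was borne out by the skeletal muscle markers: 8 of the 10 listed had a row, and their summed level was 129800 to 253100 CPM, lowest in CHEMO FO replicate 18. That library stood apart from the others and is described on its own below, with each result that rests on it given with and without it. TUMOUR STD replicate 10 and CHEMO FO replicate 16 held 539.8 and 114.3 CPM of skin keratinocyte markers, against at most 8.05 CPM in the other samples. The member counts were not small, from 20 to 16564 in a sample. No source used here gives whether the counting used strand or how it treated reads from more than 1 gene, so members with close paralogues (the ATG8 family, Ulk1 and Ulk2) are less certain.

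The members' spread between samples ran from small to large. The SD of log2 CPM between samples of a condition had a median of 0.27 over the 35 members, against 0.36 over all genes tested, which include genes of far lower level (lowest mean log2 CPM -0.57, against 3.40 for the members) and were not matched to the members. Lamp1, a main glycoprotein of the lysosomal membrane, varied least of the members (0.12), followed by the protease Ctsd (0.14) and the ATG8 member Gabarapl2 (0.15). The cysteine protease Ctsl varied most (0.80), followed by Rb1cc1 (FIP200, the scaffold of the ULK1 complex, 0.50) and the cysteine protease Ctsb (0.43).

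**Figure D1:**
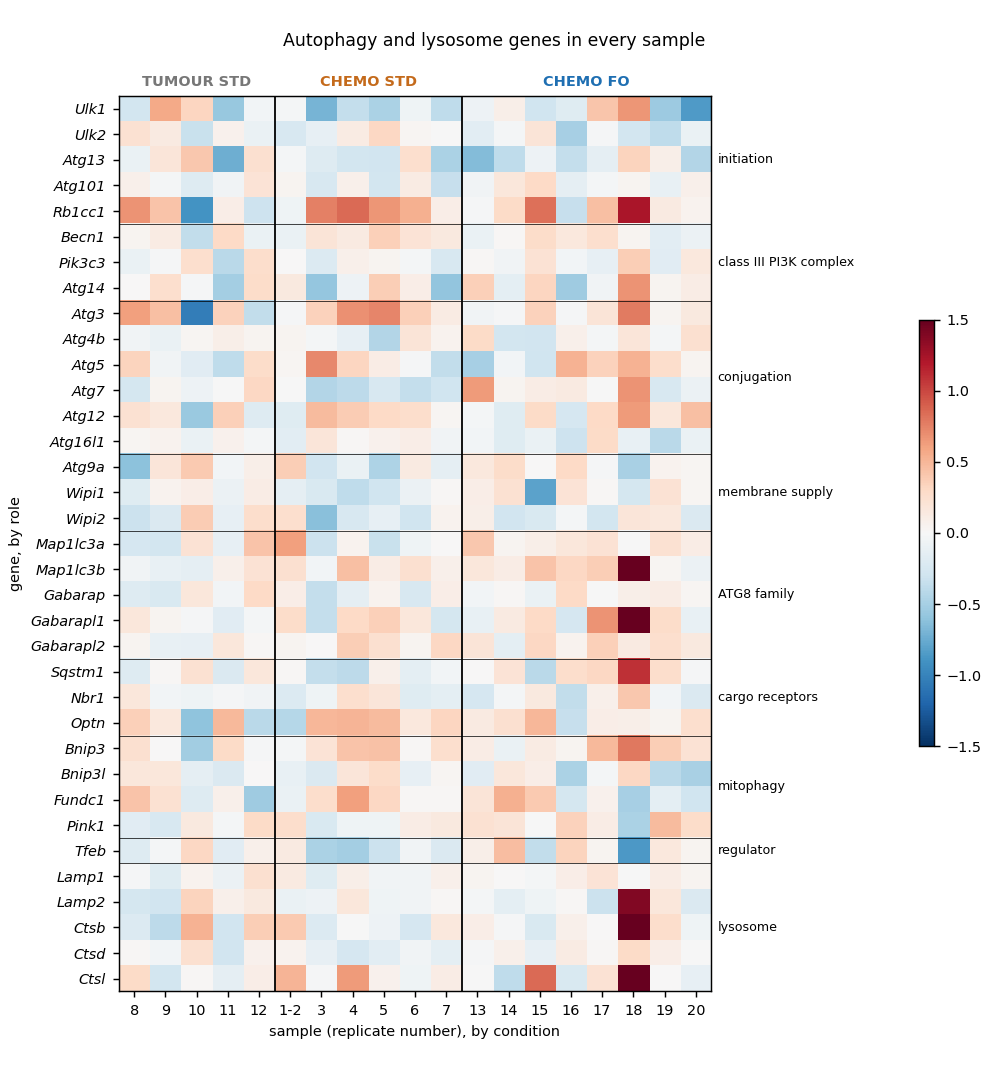
Heat map of the 35 genes (rows, grouped by role) in the 19 samples (columns, by condition and replicate number). Colour gives log2 CPM minus the gene's mean over the 5 TUMOUR STD samples, limited to 1.5 either way. The strongest colours lie in the column of CHEMO FO replicate 18 and do not run through a condition.

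Chemotherapy on the standard diet was accompanied by no called change in the set. Calls required both a fold change of at least 1.5 and an unadjusted p below 0.05 in edgeR's quasi-likelihood test. In CHEMO STD versus TUMOUR STD 0 of 35 members were called, where 2.38% of all genes tested were, and 0 of 35 had a p below 0.05 alone, where 6.5% of all genes did. Of the members 17 were higher and 18 lower, with a median log2 fold change of -0.00, the same as that of all genes tested. The differences ran from -0.37 in Ulk1 to 0.41 in Rb1cc1. The 95% interval of the difference lay within 1.5-fold in either direction for 24 of the 35 members. For the 11 others (Ulk1, Atg3, Atg7, Atg13, Map1lc3b, Gabarapl1, Optn, Fundc1, Rb1cc1, Tfeb and Ctsl) a change of that size could not be told from none at this number of samples. Without TUMOUR STD replicate 8, Rb1cc1 was called (log2 fold change 0.60) and was the only member with a p below 0.05, where 10.1% of all genes had one. Without TUMOUR STD replicate 11, Ulk1 (-0.49) was the only member with a p below 0.05, where 10% of all genes had one.

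The fish oil diet was accompanied by no called member either, and by 2 members with a p below 0.05. In CHEMO FO versus CHEMO STD 0 of 35 members were called (1.66% of all genes tested). Atg7 and Sqstm1, both higher under fish oil, were the 2 with a p below 0.05 alone, or 5.71% of the members against 4.5% of all genes in either direction and 2.44% in the higher direction. Of the members 23 were higher and 12 lower, with a median log2 fold change of 0.10 (all genes -0.01), and the median was 0.01 without CHEMO FO replicate 18. Intervals lay within 1.5-fold for 23 of 35 members with all samples and for 31 without that replicate, the exceptions then being Atg3, Atg7, Rb1cc1 and Tfeb.

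Against TUMOUR STD, 1 of 35 members was called in CHEMO FO (3.6% of all genes tested, 1.09% in the higher direction), namely Ctsl, which was higher. Map1lc3b, also higher, had a p below 0.05 and a fold change under the threshold. Together these were 5.71% of the members against 9.04% of all genes in either direction and 3.72% in the higher direction. Here 26 members were higher and 9 lower, with a median log2 fold change of 0.05 (all genes 0.00). Without CHEMO FO replicate 18, no member had a p below 0.05 by edgeR (9% of all genes did), and 25 were higher. The 2 comparisons of CHEMO FO share its samples, and those with CHEMO STD or TUMOUR STD share theirs, so they are not independent of each other. No member passed a Benjamini-Hochberg adjusted p of 0.05 over all genes in any comparison, and in edgeR no gene did. DESeq2 found 0, 0 and 11 such genes in the 3 comparisons, none of them a member. The condition ranges overlapped for every member in every comparison, as they did for all but 0.495%, 0.0683% and 0.324% of genes tested.

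**Figure D2:**
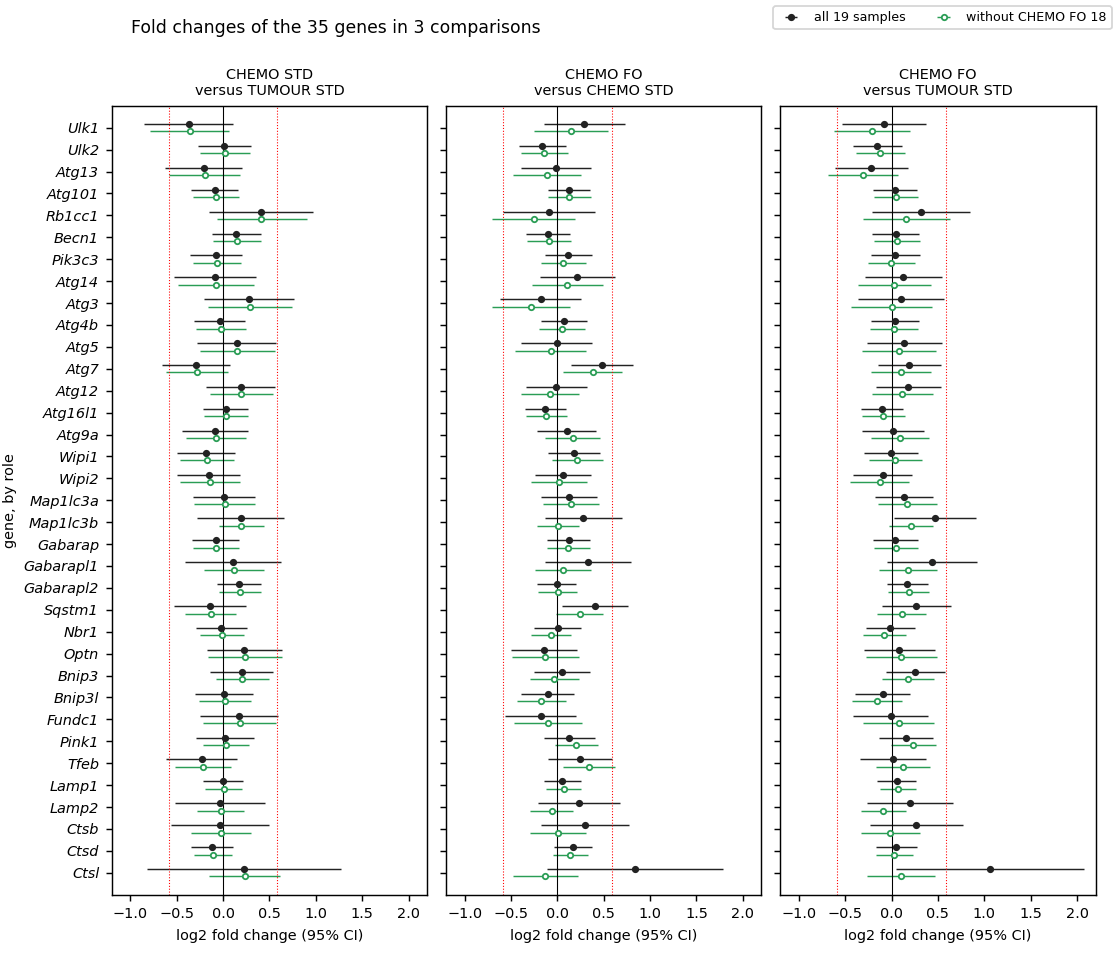
Log2 fold changes of the 35 genes in the 3 comparisons, with 95% intervals from edgeR's quasi-likelihood fit. Filled points use all 19 samples and open points leave out CHEMO FO replicate 18, and dotted lines mark 1.5-fold. The points of Ctsl in CHEMO FO move from 0.84 to -0.13 against CHEMO STD and from 1.06 to 0.10 against TUMOUR STD.

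None of the initiation and nucleation genes had a p below 0.05 in a comparison of the 19 samples by edgeR. Of the ULK1 complex, Ulk1, the kinase itself, had levels of 27.6, 49.4, 41.6, 22.3 and 32.4 CPM in TUMOUR STD. In CHEMO STD it ranged from 20.5 to 32.6 CPM (median 25.8) and in CHEMO FO from 18.3 to 52.9 CPM (median 30.4). No CHEMO STD sample reached the 2 highest TUMOUR STD samples, and CHEMO FO ran from below to above the TUMOUR STD range. The difference of CHEMO STD from TUMOUR STD was -0.37 ± 0.23 (log2, SE, edgeR adjusted p = 0.727). Rb1cc1 ranged from 45.6 to 136.5 CPM in TUMOUR STD, from 81.8 to 153.5 CPM in CHEMO STD and from 66.9 to 199.9 CPM in CHEMO FO, and the conditions overlapped over most of that range. In limma voom with sample weights, Rb1cc1 had a p below 0.05 in CHEMO FO versus CHEMO STD (-0.36, against -0.09 by edgeR). For Ulk2, a second kinase of the complex, and for Atg13 and Atg101, its regulatory subunits, differences lay between -0.22 and 0.13 in the 3 comparisons. Those of the lipid kinase Pik3c3, its scaffold Becn1 and the targeting subunit Atg14 lay between -0.10 and 0.21. Atg9a, which supplies membrane as a lipid scramblase on vesicles, and the PI3P-binding Wipi1 and Wipi2 had differences of -0.09, -0.19 and -0.16 between CHEMO STD and TUMOUR STD and of 0.10, 0.18 and 0.06 between CHEMO FO and CHEMO STD, with no p below 0.05 in either. Without CHEMO FO replicate 15, Wipi1 had an edgeR p below 0.05 in CHEMO FO versus CHEMO STD (0.26), where 5.02% of all genes had one.

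Atg7, the E1-like enzyme that activates ATG8 proteins and Atg12 for conjugation, gave the smallest p of the members in the diet comparison. Its levels in TUMOUR STD were 9.71, 12.0, 11.1, 11.6 and 14.5 CPM. The 6 CHEMO STD samples ran from 8.55 to 11.6 CPM (median 9.25) and the 8 CHEMO FO samples from 9.82 to 18.9 CPM (median 12.3). CHEMO STD lay low and tight, with only its sample 1-2 above 9.84 CPM, while CHEMO FO replicates 13 and 18 lay well above the rest. CHEMO STD had a mean of 9.56 ± 1.11 CPM (SD, n = 6), whereas that of CHEMO FO was 13.4 ± 3.37 CPM (SD, n = 8). CHEMO FO exceeded CHEMO STD by 0.48 ± 0.16 (log2, SE), with an edgeR p of 0.00679, an adjusted p of 0.974 and, in a two-sided exact permutation test over the 3003 arrangements of the samples, p = 0.00699. The difference stayed between 0.38 and 0.56 with a p below 0.05 when each of the 19 samples was left out in turn, and stood at 0.38 without CHEMO FO replicate 18. It remained below 1.5-fold. Against TUMOUR STD, Atg7 differed by -0.29 ± 0.18 in CHEMO STD (edgeR adjusted p = 0.721) and by 0.19 ± 0.17 in CHEMO FO (adjusted p = 0.736). In the same comparison 3 of 6 pan-leukocyte markers tested were called lower in CHEMO FO. The summed level of the 7 listed was 254.2 CPM in CHEMO STD replicate 7, while the 5 other CHEMO STD samples lay between 48.9 and 69.3 CPM, inside the 32.3 to 85.8 CPM of CHEMO FO. Atg7 stood at 9.42 CPM in CHEMO STD replicate 7, and its difference kept a p below 0.05 without that sample. The part of leukocyte content in the level of Atg7 was not tested.

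None of the other conjugation enzymes had a p below 0.05 by edgeR. Atg3, the E2-like enzyme that hands ATG8 to the lipid, ranged widely within TUMOUR STD, at 26.5, 23.7, 8.24, 22.1 and 13.3 CPM. It ran from 17.02 to 28.9 CPM (median 22.1) in CHEMO STD and from 16.6 to 29.8 CPM (median 18.4) in CHEMO FO. Its lowest sample was TUMOUR STD replicate 10 and its highest CHEMO FO replicate 18, and the diet comparison gave -0.18 ± 0.21 (log2, SE). Atg4b, the protease that trims ATG8 proteins, and Atg5, Atg12 and Atg16l1, which form the E3-like complex, differed by between -0.13 and 0.19 in the 3 comparisons.

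Of the 5 ATG8 transcripts, Map1lc3b and Gabarapl1 were far higher in a single library than elsewhere. Map1lc3b (LC3B) had levels of 68.3, 65.3, 64.2, 74.8 and 82.2 CPM in TUMOUR STD. It ranged from 68.7 to 96.8 CPM in CHEMO STD (median 79.9) and, apart from replicate 18, from 66.3 to 94.9 CPM in CHEMO FO, where that replicate reached 214 CPM. Gabarapl1 behaved alike, from 41.6 to 52.9 CPM in TUMOUR STD, 36.3 to 60.0 CPM in CHEMO STD and 39.4 to 74.99 CPM in the 7 other CHEMO FO samples, with 138 CPM in replicate 18. For Map1lc3b, CHEMO FO exceeded TUMOUR STD by 0.47 ± 0.21, with an edgeR p of 0.0386, an adjusted p of 0.539 and, in a two-sided exact permutation test over the 1287 arrangements, p = 0.131. Without replicate 18 the difference was 0.21 ± 0.11 (edgeR adjusted p = 0.607), and in limma voom with sample weights it was 0.19. By edgeR it also had a p above 0.05 without TUMOUR STD replicate 8, 9, 10 or 11 (0.435 to 0.489). The same held with library totals alone (0.52) and with only the 2 conditions in the fit (0.47). For Gabarapl1 the same comparison gave 0.44 ± 0.24 (edgeR adjusted p = 0.573), and 0.18 without replicate 18. Its edgeR p lay below 0.05 without CHEMO FO replicate 13 (0.51), 16 (0.515) or 20 (0.506), where 8.15% to 11.8% of all genes had such a p. Map1lc3a (LC3A), Gabarap and Gabarapl2 stood at 96.3, 124 and 93.1 CPM in replicate 18, inside the range of the other CHEMO FO samples for the GABARAP pair and just below it for Map1lc3a. Their differences in the 3 comparisons lay between -0.08 and 0.17. Map1lc3a was highest in CHEMO STD sample 1-2, at 148.5 CPM, against 76.8 to 100.3 CPM in the other CHEMO STD samples. Without sample 1-2, CHEMO FO exceeded CHEMO STD by 0.28, with an edgeR p below 0.05, and limma voom with sample weights, which count the more variable libraries less, gave 0.27 with a p below 0.05 from all 19.

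Among the cargo receptors, Sqstm1 (p62), which binds ubiquitin-tagged cargo and is itself degraded by autophagy, was the other member with a p below 0.05 in the diet comparison. Its levels were 428, 493.5, 570, 420 and 550 CPM in TUMOUR STD. They ran from 372 to 516 CPM in CHEMO STD (median 459) and from 370 to 1045 CPM in CHEMO FO (median 576). In CHEMO FO, 5 of the 8 samples lay above every CHEMO STD sample, replicate 18 far above, and replicate 15 was the lowest of all 19. The difference was 0.41 ± 0.17, with an edgeR p of 0.0254, an adjusted p of 0.974 and, in a two-sided exact permutation test over the 3003 arrangements, p = 0.0696. By edgeR it no longer had a p below 0.05 without CHEMO FO replicate 18 (0.24), CHEMO STD replicate 3 (0.36) or CHEMO STD replicate 4 (0.36). Nbr1, a receptor of related architecture, differed by at most 0.02 in any comparison. Optn (optineurin), a receptor for ubiquitin-tagged cargo and mitochondria, gave 0.23 ± 0.19 in CHEMO STD versus TUMOUR STD (edgeR adjusted p = 0.761) and is taken up again below.

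The mitophagy genes, whose products mark mitochondria for removal, had no p below 0.05 in any comparison by edgeR. Pink1, the kinase that accumulates on damaged mitochondria, stood at 620, 588, 774, 684 and 854 CPM in TUMOUR STD. It ranged from 593 to 834 CPM in CHEMO STD (median 710) and from 500.4 to 966 CPM in CHEMO FO (median 806). The lowest of all 19 samples was CHEMO FO replicate 18, and the 7 others of that condition lay at 696.5 CPM or above. Pink1 differed between CHEMO FO and TUMOUR STD by 0.15 ± 0.14 (edgeR adjusted p = 0.752), and by 0.24 ± 0.12 (adjusted p = 0.566) without replicate 18. In limma voom with sample weights, Pink1 had a p below 0.05 in CHEMO FO against both CHEMO STD (0.25) and TUMOUR STD (0.29). The outer membrane receptors Bnip3, Bnip3l and Fundc1 differed by between -0.18 and 0.26 in the 3 comparisons, with no p below 0.05. Bnip3 was highest in CHEMO FO replicate 18, at 584 CPM, while Fundc1 was the next to lowest of all samples there, at 8.52 CPM.

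Tfeb, a transcription factor that drives lysosomal and autophagy genes, was lower in CHEMO FO replicate 18 than in any other sample. Its levels were 46.6, 52.4, 66.6, 47.6 and 56.1 CPM in TUMOUR STD. They ranged from 37.4 to 58.6 CPM in CHEMO STD (median 44.3) and from 41.1 to 73.6 CPM in the 7 CHEMO FO samples other than replicate 18, which stood at 29.2 CPM. CHEMO FO versus CHEMO STD gave 0.25 ± 0.17 with all samples (edgeR adjusted p = 0.974) and 0.35 ± 0.14 without replicate 18 (adjusted p = 0.889), where the unadjusted p lay below 0.05. It gave 0.40 in limma voom with sample weights, also with an unadjusted p below 0.05.

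The lysosomal members were the most and the least variable of the set. Ctsl, an endopeptidase of the lysosome, had levels of 136, 92.2, 112.5, 101 and 119.5 CPM in TUMOUR STD. It ranged from 106 to 174 CPM in CHEMO STD (median 118), and from 85.7 to 201 CPM in the 7 CHEMO FO samples other than replicate 18, where it reached 1029 CPM. The conditions overlapped throughout, with medians of 112.5, 118 and 111 CPM. The called difference of CHEMO FO from TUMOUR STD was 1.06 ± 0.49, with an edgeR p of 0.041, an adjusted p of 0.543 and, in a two-sided exact permutation test over the 1287 arrangements, p = 0.602. It was 0.10 ± 0.18 (edgeR adjusted p = 0.894) without that library. It was also 0.10 in DESeq2, which replaces outlying counts, and 1.06 in DESeq2 with those counts kept. Without TUMOUR STD replicate 9, 10, 11 or 12 the difference stayed at 1.00, 1.06, 1.03 and 1.09, with a p above 0.05. Ctsb followed the same course, from 189 to 265 CPM in the 7 other CHEMO FO samples and 621 CPM in replicate 18. So did Lamp2, the membrane protein needed for fusion and for chaperone-mediated autophagy, at 49.6 to 69.7 CPM and 163 CPM. Lamp1 and Ctsd were less than 1.5-fold from the median of the other CHEMO FO samples there. Lamp1 stood at 484.5 to 567 CPM in the 7 others and 491 CPM in replicate 18, and Ctsd at 339.6 to 403 CPM and 452 CPM, the highest of the 19 samples. For Lamp1, Ctsd, Ctsb and Lamp2 no comparison had a p below 0.05 by edgeR, and Ctsd in CHEMO FO versus CHEMO STD (0.17 ± 0.10, adjusted p = 0.974) had an unadjusted p below 0.05 in DESeq2 and in limma voom.

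The promoters of these lysosomal members are shown to give the TFEB and FOXO motifs beside their levels. TFEB is known to bind the palindrome TCACGTGA, the core of the CLEAR element, and it holds the E-box CACGTG. FOXO factors, known to drive Fbxo32, bind GTAAACA. The 250 bases before the annotated start are from RefSeq on GRCr8, which is not the build of the counts, and each is written on the strand of its gene, in lower case with matches in capitals. Ctsb is named only.
Lamp1 (chr16:83075064-83075313, minus strand): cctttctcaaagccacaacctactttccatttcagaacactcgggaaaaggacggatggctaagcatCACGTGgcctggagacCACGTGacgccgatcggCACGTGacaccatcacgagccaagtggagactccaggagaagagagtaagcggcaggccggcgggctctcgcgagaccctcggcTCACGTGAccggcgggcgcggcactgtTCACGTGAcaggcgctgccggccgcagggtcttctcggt
Ctsd (chr1:206968822-206969071, minus strand): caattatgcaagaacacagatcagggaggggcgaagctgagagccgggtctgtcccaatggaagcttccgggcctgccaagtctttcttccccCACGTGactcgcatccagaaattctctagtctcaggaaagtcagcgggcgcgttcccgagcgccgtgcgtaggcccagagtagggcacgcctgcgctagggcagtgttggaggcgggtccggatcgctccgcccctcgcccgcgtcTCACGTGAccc
Lamp2 (chrX:122087674-122087923, minus strand): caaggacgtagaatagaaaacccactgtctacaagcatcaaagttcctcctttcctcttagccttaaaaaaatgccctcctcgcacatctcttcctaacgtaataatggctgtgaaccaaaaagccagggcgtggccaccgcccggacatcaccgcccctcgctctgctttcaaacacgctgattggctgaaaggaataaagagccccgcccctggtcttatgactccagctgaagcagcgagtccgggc
Ctsl (chr17:769854-770103, plus strand): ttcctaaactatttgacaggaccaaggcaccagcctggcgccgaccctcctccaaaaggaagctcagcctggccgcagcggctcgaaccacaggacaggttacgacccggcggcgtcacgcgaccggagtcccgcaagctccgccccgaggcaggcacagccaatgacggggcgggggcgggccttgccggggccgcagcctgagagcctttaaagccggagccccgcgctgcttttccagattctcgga

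The windows of Lamp1 and Ctsd each held the CLEAR core, with 5 and 2 E-boxes in all including those inside it, and those of Lamp2 and Ctsl held none of the 3 motifs. Of the 35 members 28 matched a promoter in the table. On both strands TCACGTGA was found in 3 of these 28 (Atg3, Ctsd and Lamp1; 10.7%) and in 0.743% of all 27457 promoters, and CACGTG in 6 (also Atg5, Bnip3 and Pink1; 21.4%) and in 5.79% of all. The FOXO motif was found in 0 of 28 members and in 3.25% of all promoters. The most similar genes gave shares near those of the members for the first 2 motifs. Of 117 promoters of other autophagy and lysosome genes, 9 held TCACGTGA (7.69%), 21 CACGTG (17.9%) and 3 the FOXO motif (2.56%). Members with these motifs were high, level or low in CHEMO FO replicate 18. With the CLEAR core, Atg3 was 1.68-fold, Ctsd 1.21-fold and Lamp1 0.968-fold the median of the other CHEMO FO samples. With an E-box alone, Bnip3 was 1.59-fold, Atg5 1.40-fold and Pink1 0.615-fold. A match is a stretch of letters and no measurement of binding, and distant elements lie outside these windows.

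CHEMO FO replicate 18 stood apart over the members as it did over all genes. It was the highest of the 19 samples for 17 of the 35 members, where no other sample was highest for more than 3, and it was the highest for 18.6% of all genes tested. Against the median of the 7 other CHEMO FO samples, 13 members were at least 1.5-fold higher and 2 at least 1.5-fold lower (Pink1 and Tfeb), where 19.6% of all genes were higher and 22% lower. The same measure, taken for each other sample within its own condition, gave 0 to 2 members higher and 0 to 5 lower. Of all genes 4.32% to 13.9% were 1.5-fold higher in those other samples. The members highest relative to that median were Ctsl (9.29-fold), Ctsb (2.81-fold), Lamp2 (2.74-fold), Map1lc3b (2.69-fold), Gabarapl1 (2.68-fold), Rb1cc1 (2.15-fold), Sqstm1 (1.86-fold) and Ulk1 (1.81-fold). Smaller excesses were found in Atg3, Atg13, Bnip3, Atg14 and Atg7 (1.56-fold to 1.68-fold). By role, these were 3 of 5 transcripts of the lysosome, 2 of 5 of the ATG8 family, 1 of 3 of the cargo receptors, 3 of 5 of initiation, 1 of 3 of the lipid kinase complex, 2 of 6 of conjugation and 1 of 4 of mitophagy, while Tfeb was at 0.513 of the median and Pink1 at 0.615.

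In that library other genes outside the set also stood far out, and these were picked after their values had been seen. Trim63 reached 2583 CPM, against 193.6 to 414.5 CPM in the other 18 samples. Fbxo32 reached 1861 CPM, against 160.4 to 648.9 CPM, with CHEMO FO replicates 17 (648.9 CPM) and 15 (593 CPM) next. Without replicate 18, Fbxo32 still passed the call threshold in CHEMO FO versus TUMOUR STD by edgeR (0.65 ± 0.31, adjusted p = 0.55). There 9% of all genes had a p below 0.05. Against CHEMO STD it was 0.30, with a p above 0.05. In limma voom with all samples Fbxo32 had a p above 0.05 in both (0.39 and 0.06). In replicate 18 the lysosomal protease Lgmn (legumain) stood at 246 CPM, against at most 56.2 CPM elsewhere. The lysosomal tetraspanin Cd63 stood at 242 CPM there, against at most 99.6 CPM, and the transcription factor Foxo1 at 48.3 CPM, against at most 25.7 CPM. Of the 130 other genes of autophagy and the lysosome tested, 24 were at least 1.5-fold higher than the median of the 7 other CHEMO FO samples and 18 lower. Over all genes tested 19.6% were higher and 22% lower by that measure. The median ratio was 1.06 over the 130 genes, against 1.33 over the 35 members. The list that holds Lgmn, the other lysosomal hydrolases, had 3 of 32 higher and 8 lower, with a median ratio of 0.957. Among macrophage markers 9 of 13 tested were at least 1.5-fold higher (median ratio 2.29) and 1, Adgre1, was lower (0.663). Among pan-leukocyte markers 1 of 6 tested was higher and 0 lower (median ratio 1.22). The summed level of the 15 macrophage markers listed was 826 CPM, against 232.5 to 536 CPM in the 18 other samples, and Marco alone of the 15 was at 0. At least 1.5-fold lower were 7 of 8 muscle markers, 5 of 8 slow fibre markers, 3 of 5 endothelial markers and 4 of 6 adipocyte markers. Of 5 matrix markers 3 were lower and 1 higher. In bulk RNA, fewer cells of a type and less RNA per cell cannot be told apart. The part of cell content, RNA quality or the state of that rat in these levels was not tested.

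**Figure D3:**
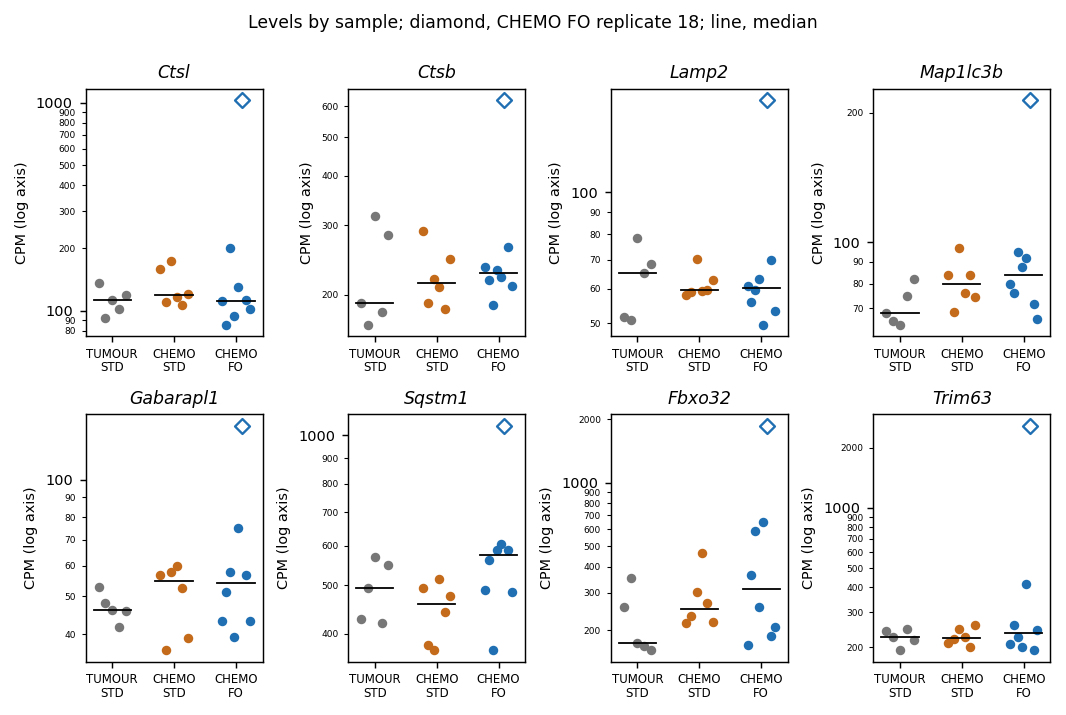
Levels (CPM, log axes) of 6 members and of the ubiquitin ligases Fbxo32 and Trim63 in each of the 19 samples by condition, with the median of each condition as a line. The open diamond is CHEMO FO replicate 18, which lies above every other sample in all 8 panels, at 1029 CPM for Ctsl and 2583 CPM for Trim63.

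A second pattern ran across the conditions. The 4 samples with the lowest Optn, TUMOUR STD replicate 10 (122 CPM), CHEMO STD sample 1-2 (138.5 CPM), TUMOUR STD replicate 12 (140.2 CPM) and CHEMO FO replicate 16 (146 CPM), were separated from the other 15, which lay between 191 and 265 CPM. The same 4 samples held the 4 lowest levels of Rb1cc1, at 45.6, 81.8, 68.5 and 66.9 CPM, against 84.4 CPM or more in the rest. They come from all 3 conditions, and TUMOUR STD, with 2 of its 5 samples among them, had the lowest mean of both genes. The summed level of matrix markers (Col1a1, Col3a1, Dcn and others, 5 of 6 listed with a row) was highest of all samples in the same 4, at 12590, 11120, 13290 and 7016 CPM, against 1684 to 6155 CPM in the other 15. Keratinocyte markers were high in 2 of the 4. The pattern was noticed in the data, and the part of tissue content in it was not tested.

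**Figure D4:**
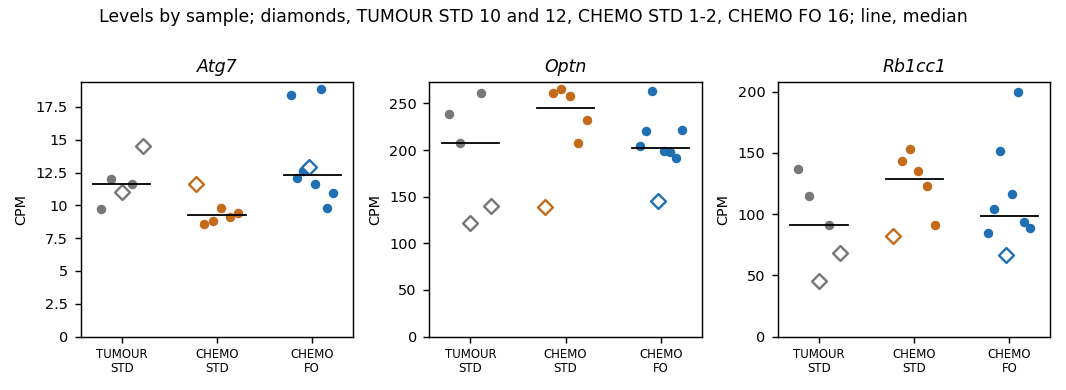
Levels (CPM) of Atg7, Optn and Rb1cc1 in each of the 19 samples by condition, with the median of each condition as a line. Open diamonds mark TUMOUR STD replicates 10 and 12, CHEMO STD sample 1-2 and CHEMO FO replicate 16, which are the 4 lowest samples for Optn and Rb1cc1 but not for Atg7.

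Macrophages are rich in lysosomes, and the lysosomal members were therefore set against the mean log2 CPM of 13 detected macrophage markers, both centred within conditions. Over the 19 samples Ctsb moved most closely with the markers, with r = 0.86 (permutation p = 0.00025, adjusted over 5 genes 0.00125) and rho = 0.71 (permutation p = 0.00188, adjusted 0.0094). Ctsd gave r = 0.67 (permutation p = 0.00276, adjusted 0.0069) and rho = 0.68 (p = 0.00415, adjusted 0.0104), Ctsl r = 0.70 (permutation p = 0.00845, adjusted 0.0106) and rho = 0.58 (p = 0.0063, adjusted 0.0105), and Lamp2 r = 0.73 (permutation p = 0.00627, adjusted 0.0105) and rho = 0.48 (p = 0.0467, adjusted 0.0467). Lamp1 gave r = 0.42 (permutation p = 0.0671, adjusted 0.0671) and rho = 0.49 (p = 0.0444, adjusted 0.0467). Without the 2 samples farthest from the median of the marker level, CHEMO FO replicate 18 and CHEMO STD sample 1-2, Ctsb kept r = 0.70 (permutation p = 0.0123, adjusted 0.0379) and Lamp1 had r = 0.64 (p = 0.0152, adjusted 0.0379). For Ctsl r dropped from 0.70 to 0.29 (permutation p = 0.262), so r rested largely on those samples, while rho went from 0.58 to 0.41. Ctsd gave r = 0.48 (permutation p = 0.119, rho = 0.50) and Lamp2 r = 0.58 (permutation p = 0.0503, rho = 0.54) over the 17 samples left, of the same sign and with p above 0.05. All tests were two-sided. Cd68 among the markers is itself a lysosomal protein. No other genes and no markers of other cell types were compared in this way. How many of all genes move as closely with the markers is therefore not known, and the part of macrophage content in these levels was not tested.

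The wider pathway, taken as 141 further genes in 6 lists, was tested for 130 of them. In CHEMO STD versus TUMOUR STD 1 of 130 was called, where 2.38% of all genes were. There 5 had a p below 0.05 (3.85%, against 6.5% of all genes). The called gene was Atg10, the E2-like enzyme that joins Atg12 to Atg5, at 5.02 CPM against 2.94 CPM (0.74 ± 0.34, edgeR adjusted p = 0.719). The p lay below 0.05 in 14 of 19 fits that each left out 1 sample, and not without TUMOUR STD replicate 10 (0.52) or 12 or CHEMO STD replicate 3, 4 or 5, nor in limma voom or with libraries 1 and 2 kept separate. In CHEMO FO versus CHEMO STD 9 of 130 had a p below 0.05 (5 higher and 4 lower, 6.92% against 4.5% of all genes). Of the 130, 3 were called, where 1.66% of all genes were. Atg10 was lower, at 2.97 CPM (-0.72 ± 0.31). Foxo1, a transcription factor of atrophy genes, was higher (22.5 CPM against 14.8 CPM, 0.59 ± 0.25), and so was Tp53inp1, a stress-induced binder of ATG8 proteins (17.5 CPM against 11.1 CPM, 0.71 ± 0.33). All 3 had an edgeR adjusted p of 0.974. Without CHEMO FO replicate 18 these became -0.63, 0.31 and 0.18, none with a p below 0.05. The p was also above 0.05 for Atg10 without CHEMO STD replicate 3, 4 or 5 or CHEMO FO replicate 16 or 17, for Foxo1 without CHEMO STD replicate 4 or 5, and for Tp53inp1 without CHEMO STD sample 1-2 or replicate 3, 4 or 7. In limma voom it was above 0.05 for Foxo1 (0.36) and Tp53inp1 (0.20). Tp53inp1 also had a p above 0.05 with library totals alone (0.76) and with only the 2 conditions in the fit (0.71). In CHEMO FO versus TUMOUR STD 0 of 130 were called (3.6% of all genes) and 7 had a p below 0.05 (5.38%, against 9.04% of all genes). By list, the other machinery held the call of Atg10 among 27 genes and the regulators those of Foxo1 and Tp53inp1 among 26. The 11 other receptors and mitophagy genes, 16 V-ATPase subunits, 32 other lysosomal hydrolases and 18 membrane, transport and sorting genes held none in any comparison. Over all 130 genes the median log2 difference was -0.04, 0.04 and -0.005 in the 3 comparisons, in the order given.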

How the data were processed

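Libraries of gastrocnemius RNA were made with a stranded, rRNA-depleting kit. The authors trimmed reads with Trim Galore 0.4.1, aligned them to the rat genome (Rnor 6) with TopHat2 2.0.10 and Bowtie2, annotated them with Ensembl in Partek Flow, and deposited unnormalised integer counts per gene. Of 32883 rows, 388 name no gene (0.102% to 0.272% of counts) and were left out. A single gene that is no member was written rounded in 2 libraries.

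The 35 members and the lists were chosen with earlier results of these data known. All members are named, and of each other pathway list up to 3 called genes per comparison with the smallest p. CHEMO STD replicates 1 and 2 were summed. The analysis used R 4.3.3 and edgeR 4.0.16: default filter (minimum count 10, minimum total 15), TMM, and the quasi-likelihood test on all 3 conditions. SE is the absolute log2 fold change divided by the root of F. Permutations (100000 resamples, within conditions, or exact) used log2 CPM with a prior count of 2. The study used DESeq2. Alternatives were DESeq2 1.42.0, limma 3.58.1 voom, RLE factors, library totals, other filters and fold thresholds, other uses of replicates 1 and 2, 2 conditions in the fit and each sample left out. DESeq2 with outlying counts kept was added after seeing the data. The scripts were tested on simulated data.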

Additional observations from a re-analysis of the deposited data

Results flagged for a closer look

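In each condition the highest and the lowest sample of each member was compared with its nearest neighbour by Dixon's ratio of gap to range. Of 105 groups 11 passed the 95% value. In CHEMO FO, 8 of them were replicate 18: Atg3 (29.8 CPM, next 21.9), Map1lc3b (214.2, next 94.9), Gabarapl1 (137.6, next 74.99), Sqstm1 (1045, next 605.8), Lamp2 (163.2, next 69.7), Ctsb (621.2, next 264.9) and Ctsl (1029, next 200.6) were highest there, and Atg9a (95.03 CPM, next 131.7) was lowest. The others were Atg16l1 in CHEMO FO replicate 17 (43.8 CPM, next 34.8), Map1lc3a in CHEMO STD sample 1-2 (148.5 CPM, next 100.3) and Nbr1 in TUMOUR STD replicate 8 (156.2 CPM, next 137.6). Only members were compared in this way, so the share of all genes that would pass is not known. Members flagged in the same library are not independent. Replicate 18 was the highest sample for 18.6% and the lowest for 18.2% of all genes tested.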

How the results depend on the processing

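No member changed direction while past the threshold. With no fold threshold, all genes called became 762 for chemotherapy (CHEMO STD versus TUMOUR STD), 527 for the diet (CHEMO FO versus CHEMO STD) and 1059 for both (CHEMO FO versus TUMOUR STD), from 279, 195 and 422, and with a 1.2-fold threshold 742, 493 and 1022. Members called in the latter 2 comparisons became 2 and 2 under either. With no filter on low counts, all genes called became 971, 722 and 1116. Members called in CHEMO FO versus TUMOUR STD became 0 in DESeq2, in limma voom and with only the 2 conditions in the fit. Leaving out each sample in turn, members called ranged from 0 to 1 in each comparison. In CHEMO STD versus TUMOUR STD all genes called ranged from 161 (without TUMOUR STD replicate 10) to 603 (without CHEMO STD sample 1-2), with 529 without TUMOUR STD replicate 8 and 450 without replicate 11, and in CHEMO FO versus TUMOUR STD from 273 (without CHEMO FO replicate 18) to 584 (without TUMOUR STD replicate 11). Ctsl was called in CHEMO FO versus CHEMO STD without CHEMO FO replicate 14 (0.97) or 16 (0.96), and was not called in CHEMO FO versus TUMOUR STD without TUMOUR STD replicate 9, 10, 11 or 12 or CHEMO FO replicate 18. Beyond the construction of these settings, the cause was not tested. No paired analysis was possible because the labels number the libraries without repeats.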
